A study of Gallus gallus with 6 samples.

Results

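The 10 genes described here encode receptors, a growth factor, a lipase and marker proteins best known from the cells that line blood and lymph vessels. They were chosen by name, as the entries of the deposited tables called KDR, FLT1, FLT4, TIE1, TEK, EGFL7, CLDN5, LMO2, VEGFA and LIPG. The choice was made with earlier results of these data known. Each name matched 1 entry, so the set is 10 of 26591 gene entries. The RNA-seq libraries came from primary muscle cells of chicken (Gallus gallus) embryos at passage 1, with 3 from myoblasts in growth medium and 3 from differentiated myotubes. Myoblasts are the single precursor cells of muscle, and myotubes are the fused cells they form. Myoblasts were kept in RPMI-1640 with 15% FBS (fetal bovine serum), myotubes were induced with RPMI-1640 and 2% horse serum, and both media held 2% penicillin and streptomycin. The kind and amount of serum therefore changed together with the state of the cells, and their parts cannot be told apart. Both groups were primary cultures of embryonic muscle, with no sort named in the labels.

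In vertebrates, endothelial cells take up growth signals through receptor tyrosine kinases of 2 families. KDR, FLT1 and FLT4 bind ligands of the vascular endothelial growth factor (VEGF) family, and TIE1 and TEK form the angiopoietin receptor system that steadies mature vessels. Skeletal muscle fibres are themselves a known source of the ligand VEGFA, which draws capillaries towards them. Most of these roles were worked out in mammals.

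Total counts ran from 21893152 to 27546527 per library. Of the 15959 genes that passed the filter on low counts, 59.1% were called different between the groups, 30.0% higher and 29.1% lower in myotubes (edgeR quasi-likelihood test, Benjamini-Hochberg adjusted p under 0.05). Whether replicates were separate cultures or embryos is not stated, so a p-value here reflects only how these libraries scatter, which may be technical. Myoblast replicate 3 stood apart from the other myoblast libraries: the chi-square of counts per gene was 48.5 and 58.6 against replicates 1 and 2, and 10.5 between those. FPKM, a fragment count scaled by gene length and library size, is used below for levels. Log2 changes are myotube minus myoblast with an approximate standard error (SE).

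The receptor genes KDR, FLT1, FLT4 and TIE1 and the lipase gene LIPG fell in myotubes, by 3.85-fold to 12.5-fold, and VEGFA fell by a small amount. CLDN5, EGFL7 and LMO2 rose, by 4.93-fold, 2.99-fold and 1.37-fold. TEK had too few counts to pass the filter. The set did not move as 1 block. Of the 9 genes tested, 6 were called lower and 3 higher, where 59.1% of all tested genes were called. This count supports nothing by itself, because KDR and TIE1 reached the filter's cutoff of 0.428 CPM (counts scaled to library size) in the 3 myoblast libraries and in 0 of the myotube libraries. Without a filter, 7 were called lower and 3 higher, against a background of 43.1% called among 22246 genes, 21.9% higher and 21.2% lower. DESeq2 called the same 6 lower and 3 higher, with 57.9% of all genes called, 29.0% higher and 28.9% lower. Limma on log2(FPKM + 1) called the same 6 and 3, with 58.8% of all genes called, 27.4% higher and 31.3% lower. DESeq2 and limma were run on the same filtered genes, so their counts of calls carry the same limit. FLT4, KDR, LIPG and TIE1 were lower by at least 2 on the log2 scale, as were 4.27% of all genes, and CLDN5 was higher by at least 2, as were 4.25%. At a bound of 1, FLT1 joined the first of these groups and EGFL7 the second, where 11.8% of all genes were lower and 13.2% higher. The FPKM of the groups did not overlap in any of the 10 genes, which also held for 66.7% of all tested genes. TEK is among the 10 but not among the tested genes. KDR and TIE1 passed the filter only through the myoblasts, so the counts by size and by overlap carry the same limit. Being chosen with earlier results known, the set cannot be judged against these shares.

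**Figure D1:**
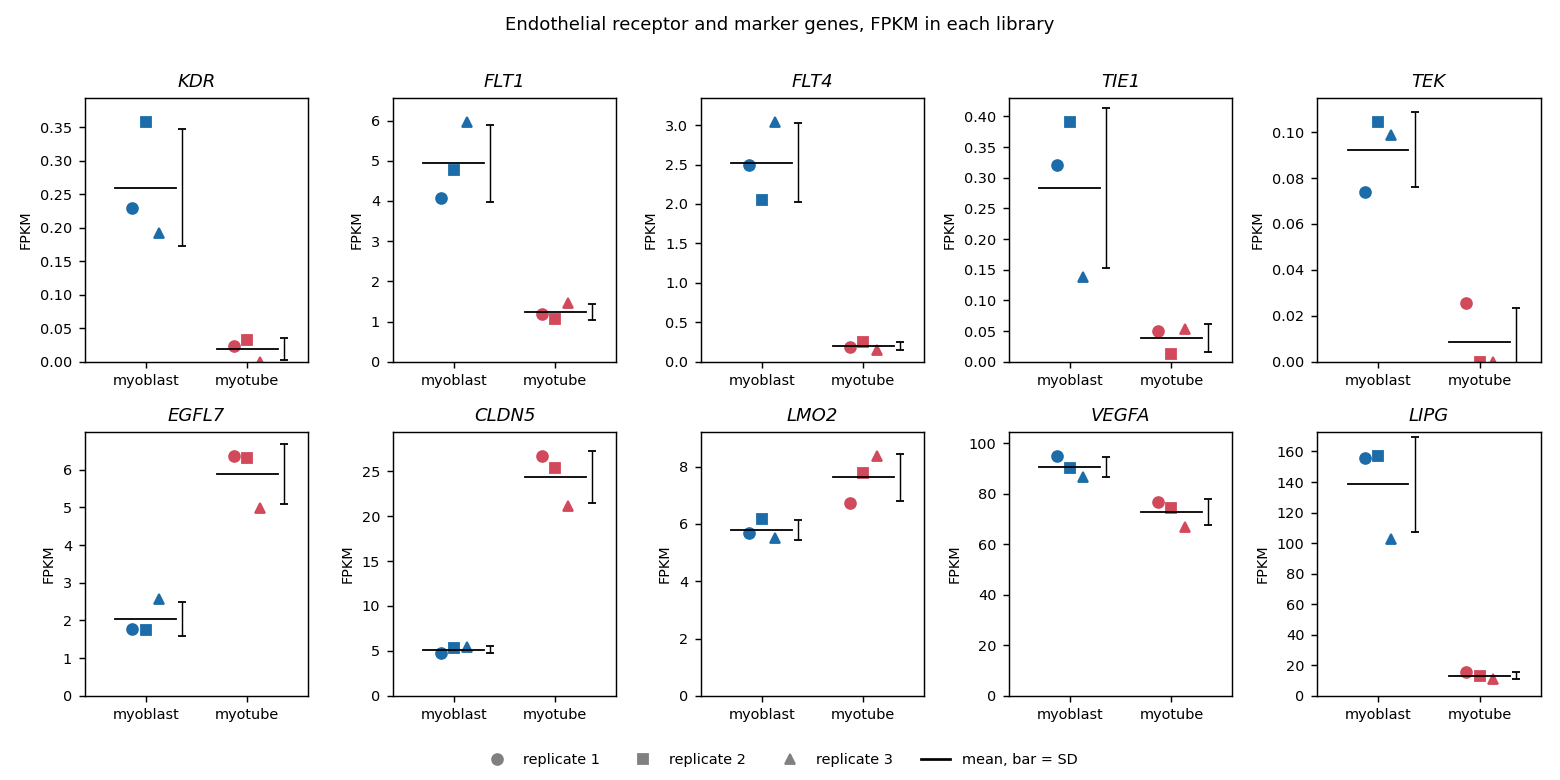
FPKM of the 10 genes in each of the 6 libraries (vertical axis, linear, from 0), myoblasts in blue and myotubes in red, with a line at the mean and a bar for the SD. The groups do not overlap in any of the 10 panels, and the highest library runs from 0.104 FPKM for TEK to 157 FPKM for LIPG.

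KDR, the main signalling receptor for VEGFA in endothelium, was close to the limit of detection. Values are given in the order of replicates 1, 2 and 3 in each group. KDR had 30, 44 and 28 counts in myoblasts and 3, 4 and 0 in myotubes, or 0.230, 0.358 and 0.191 FPKM against 0.0240, 0.0329 and 0. All 3 myoblast libraries lay above the myotube libraries. This was a log2 change of -3.62 ± 0.58 (SE, n = 3 each, edgeR quasi-likelihood with Benjamini-Hochberg adjusted p = 0.000942). The ratio of summed counts, 102 against 7, scaled to the library totals, was 13.2 with an exact 95% interval of 6.19 to 33.7 that covers counting error only. The 0 in myotube replicate 3 allows up to 0.137 CPM. By mean FPKM, KDR ranked 15889 of the 15959 tested genes.

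FLT1 was the most abundant of the VEGF receptor genes per length. Its product binds VEGFA tightly and signals weakly, and in mammals it acts largely as a trap. It was at 4.08, 4.77 and 5.97 FPKM in the myoblast libraries and at 1.18, 1.06 and 1.46 FPKM in the myotube libraries. Every myoblast library had more than every myotube library, with the most in replicate 3 of either group. On the log2 scale the change was -1.94 ± 0.19 (SE, n = 3 each, adjusted p = 7.34e-05, edgeR), a 3.85-fold fall.

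FLT4, the receptor for VEGFC and VEGFD and a marker of lymphatic endothelium in adult tissue, had the lowest log2 change of the 9 genes tested, close to that of KDR. The myoblast libraries held 2.49, 2.05 and 3.04 FPKM and the myotube libraries 0.183, 0.249 and 0.150 FPKM, from 1518 and 105 summed counts. The lowest myoblast library was far above the highest myotube library. edgeR gave a log2 change of -3.64 ± 0.24 (SE, n = 3 each, adjusted p = 1.13e-05, edgeR), the 119th largest fall of all tested genes.

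Summed FPKM of KDR, FLT1 and FLT4 was 6.79, 7.17 and 9.20 in myoblasts and 1.39, 1.35 and 1.62 in myotubes. FLT1 made up 60.0%, 66.5% and 64.9% of it in myoblasts and 85.1%, 79.0% and 90.7% in myotubes. FLT1 stood at 1.64, 2.33 and 1.96 times the FPKM of FLT4 in myoblasts and at 6.47, 4.27 and 9.74 times in myotubes. The FLT1 shares and these ratios did not overlap between the groups. KDR made up 3.38%, 4.99% and 2.08% in myoblasts and 1.73%, 2.45% and 0% in myotubes, and these shares overlapped. The shares are a description with no test.

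**Figure D2:**
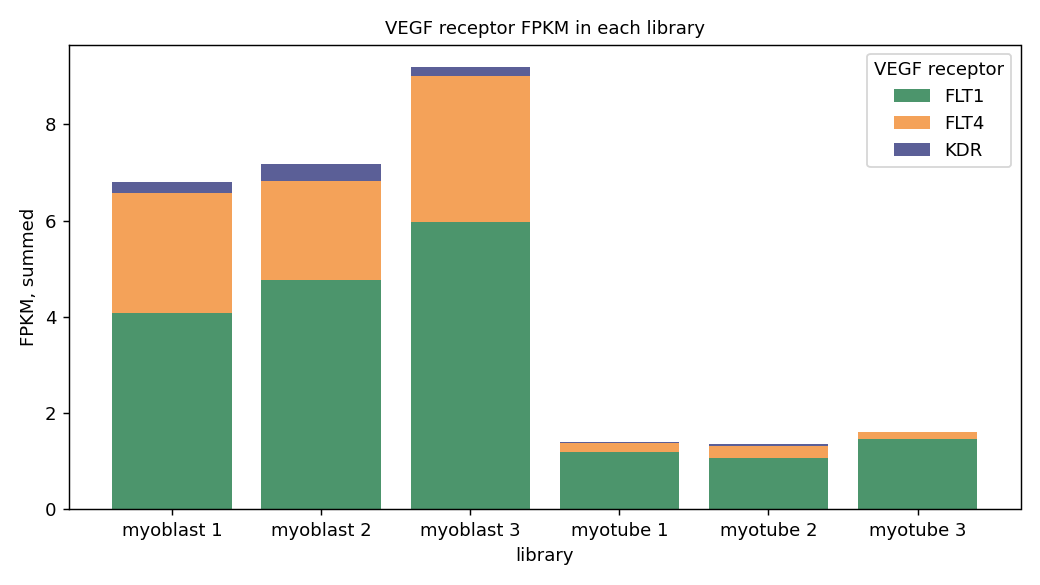
FPKM of FLT1, FLT4 and KDR stacked for each of the 6 libraries (vertical axis, linear, from 0). The stacks reach 6.79 to 9.20 FPKM in myoblasts and 1.35 to 1.62 in myotubes, where the FLT4 layer is thin and KDR is hardly visible.

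Both genes of the TIE family were near the limit of detection. TIE1, an orphan-like partner of TEK, had 27, 31 and 13 counts in myoblasts and 4, 1 and 4 in myotubes, or 0.321, 0.391 and 0.138 FPKM against 0.0497, 0.0128 and 0.0534. The groups did not overlap, although myoblast replicate 3 had less than each of the other myoblast libraries. The fitted log2 change was -2.75 ± 0.57 (SE, n = 3 each, adjusted p = 0.00353, edgeR).

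TEK, the receptor for the angiopoietins, had 6, 8 and 9 counts in myoblasts and 2, 0 and 0 in myotubes. In FPKM these were 0.0738, 0.104 and 0.0988 against 0.0257, 0 and 0. The ratio of summed counts, 23 against 2 and scaled to the totals, was 10.4 with an exact 95% interval of 2.58 to 91.3 for counting error. In a fit without the filter its log2 change was -3.12 ± 0.93 (SE, n = 3 each, adjusted p = 0.0190, edgeR). The zeros in myotube replicates 2 and 3 allow up to 0.131 and 0.137 CPM.

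LIPG had the highest level of the 10 genes in myoblasts. It encodes endothelial lipase, a secreted phospholipase that in mammals acts on high-density lipoprotein at the vessel wall. It was at 156, 157 and 103 FPKM in myoblasts and at 15.5, 13.1 and 11.02 FPKM in myotubes. Myoblast replicate 3 was below the other myoblast libraries, and still far above every myotube library. That is a log2 change of -3.33 ± 0.19 (SE, n = 3 each, adjusted p = 6.02e-06, edgeR), a 10.04-fold fall.

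VEGFA, the secreted ligand of KDR and FLT1, was abundant in both groups. It was at 94.9, 89.9 and 86.7 FPKM in myoblasts and at 76.7, 74.1 and 66.8 FPKM in myotubes. The groups did not overlap, and the highest myotube library was close below the lowest myoblast library. This was a log2 change of -0.26 ± 0.08 (SE, n = 3 each, adjusted p = 0.0259, edgeR), a 1.199-fold fall. Its call was lost without myoblast replicate 1 (adjusted p = 0.0862, edgeR), myotube replicate 2 (0.0873) or myotube replicate 3 (0.0904). VEGFA stood at 23.3, 18.9 and 14.5 times the FPKM of FLT1 in myoblasts and at 64.8, 69.7 and 45.6 times in myotubes.

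CLDN5 rose most among the 10 genes. It encodes claudin-5, the tight junction protein of brain and other endothelium. It was at 4.72, 5.28 and 5.41 FPKM in myoblasts and at 26.7, 25.3 and 21.1 FPKM in myotubes. The myoblast libraries lay close together, and every myotube library was above them. On the log2 scale the change was 2.30 ± 0.13 (SE, n = 3 each, adjusted p = 5.30e-06, edgeR), a 4.93-fold rise. CLDN5 was at 1.78 to 2.58 times the FPKM of FLT4 in the myoblast libraries and at 102 to 146 times in the myotube libraries.

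EGFL7 encodes a secreted protein with domains like those of epidermal growth factor, which endothelial cells lay down as vessels form. It was at 1.78, 1.76 and 2.57 FPKM in myoblasts and at 6.36, 6.32 and 4.98 FPKM in myotubes. The groups were well apart, with replicate 3 highest in myoblasts and lowest in myotubes. edgeR gave a log2 change of 1.58 ± 0.21 (SE, n = 3 each, adjusted p = 0.000343, edgeR), a 2.99-fold rise.

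LMO2 encodes a LIM-only bridging protein that holds together transcription factor complexes in blood precursors and endothelium. It was at 5.68, 6.17 and 5.50 FPKM in myoblasts and at 6.72, 7.77 and 8.37 FPKM in myotubes. The groups did not overlap, but the gap between them was small. The fitted log2 change was 0.45 ± 0.14 (SE, n = 3 each, adjusted p = 0.0248, edgeR), a 1.37-fold rise. Its call was lost without myoblast replicate 1 (adjusted p = 0.0745, edgeR), myotube replicate 2 (0.0665) or myotube replicate 3 (0.0799).

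**Figure D3:**
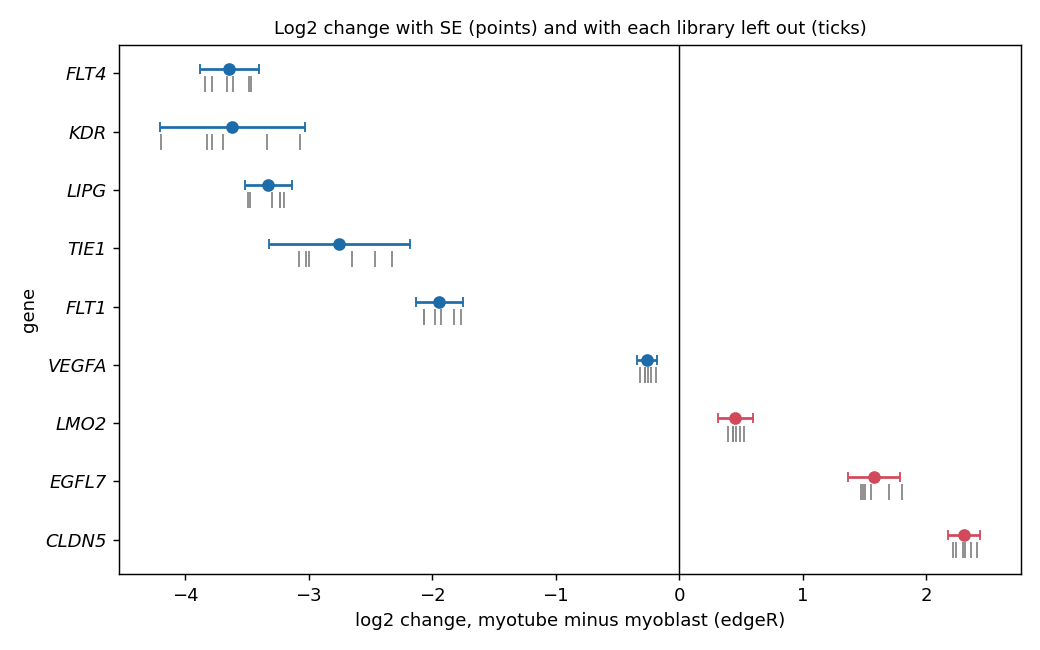
Log2 change of the 9 tested genes, myotube minus myoblast (horizontal axis), with points and bars for the edgeR estimate and its SE and grey ticks for the fits that leave out 1 library each. FLT4, KDR, LIPG, TIE1, FLT1 and VEGFA lie below 0 and LMO2, EGFL7 and CLDN5 above it, and no tick is on the other side of 0 from its point.

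Ordered by mean FPKM in myoblasts, the genes ran LIPG (138), VEGFA (90.5), LMO2 (5.78), CLDN5 (5.14), FLT1 (4.94), FLT4 (2.52), EGFL7 (2.04), TIE1 (0.283), KDR (0.260) and TEK (0.0924). The libraries of LMO2 and FLT1, of CLDN5 and FLT1, of FLT4 and EGFL7, and of TIE1 and KDR overlapped, so these pairs could not be ordered. In myotubes the order was VEGFA (72.6), CLDN5 (24.4), LIPG (13.2), LMO2 (7.62), EGFL7 (5.89), FLT1 (1.24), FLT4 (0.194), TIE1 (0.0386), KDR (0.0190) and TEK (0.00857), and the libraries of the last 3 overlapped. The FPKM of EGFL7, LMO2, VEGFA and TEK corresponded to 73.6%, 67.1%, 82.2% and 97.6% of the gene length listed beside it, and that of the other genes to the whole length. On the listed length LMO2 had a mean of 3.88 FPKM in myoblasts, below CLDN5 and FLT1 in place of above them, and its libraries still overlapped those of FLT1. EGFL7 was then at 1.498 FPKM and no longer overlapped FLT4. The order of means in myotubes did not change, but the libraries of LMO2 and EGFL7 then overlapped.

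Within groups the 9 tested genes did not all deviate in 1 direction. On a log2 CPM scale, myoblast replicate 3 lay above the mean of the other myoblast libraries by 0.58 for EGFL7, 0.49 for FLT1 and 0.48 for FLT4. It lay below it for TIE1 (-1.17), LIPG (-0.55) and KDR (-0.50), and within 0.17 of it for CLDN5, LMO2 and VEGFA. Of 13 muscle lineage markers, 9 were highest in the same library among the myoblasts, DES and TNNT3 with the largest FPKM, and 4 were lowest there (MYF5, MYF6, PAX7 and PAX3). Their summed FPKM was 4455 against 2667 and 2460 in myoblast replicates 1 and 2. PAX3 and TNNT3 are named after their values were seen. The part of this difference in the levels of the 10 genes was not tested; without that library the log2 changes were -3.79 for KDR, -3.47 for FLT4, -1.76 for FLT1, -3.08 for TIE1, -3.49 for LIPG, 1.80 for EGFL7 and 2.36 for CLDN5.

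**Figure D4:**
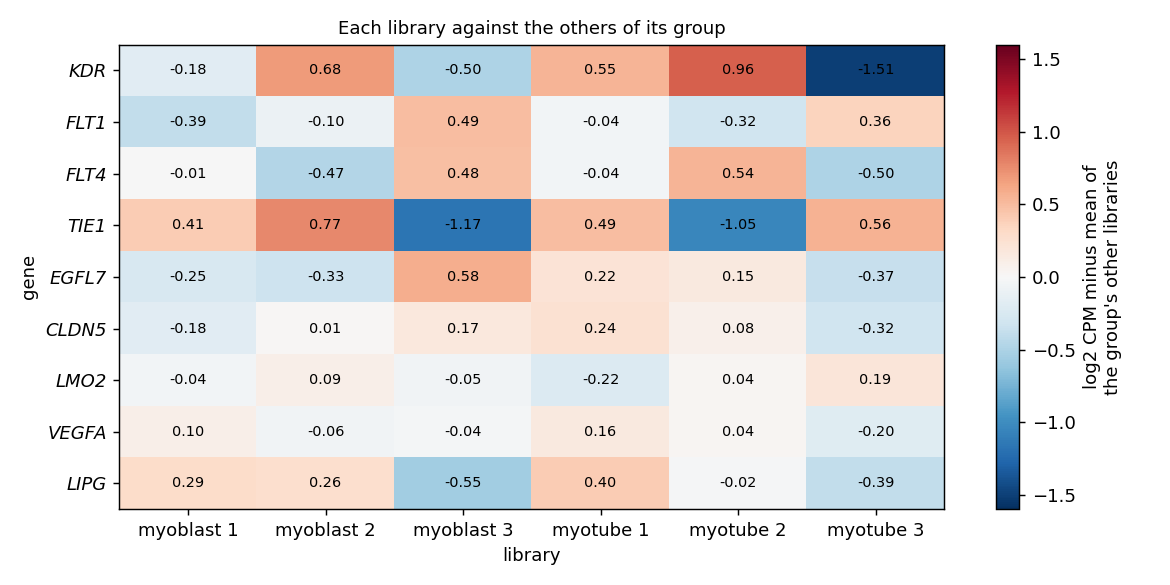
Log2 CPM of the 9 tested genes in each library minus the mean of the other libraries of its group (colour and printed value). Myoblast replicate 3 is above its group for EGFL7, FLT1 and FLT4 and below it for TIE1, LIPG and KDR, and the largest values belong to the low-count genes KDR and TIE1.

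The label of the set was checked against defining markers of endothelium. CDH5, the adhesion molecule of endothelial junctions, was at 0.215, 0.419 and 0.352 FPKM in myoblasts and at 0.178, 0.173 and 0.282 in myotubes, with no call (log2 change -0.58 ± 0.33, SE, n = 3 each, adjusted p = 0.161, edgeR). VWF, the clotting factor stored in endothelium, was at 0.158, 0.263 and 0.0564 FPKM against 0.0275, 0.0962 and 0.0591, with no call. VWF was called lower, at -1.70, without myoblast replicate 3. ESAM was at 0.203 to 0.621 FPKM in myoblasts and 0.195 to 0.606 in myotubes, with no call. CDH5, VWF and ESAM were thus below 1 FPKM in every library, the level at which KDR, TIE1 and TEK also stood. TAL1, also set among the defining genes, was at 0.670 to 1.84 FPKM in myoblasts and 1.37 to 1.95 in myotubes, with no call. MYOD1, the muscle determination factor, was at 214 to 288 FPKM in myoblasts and 136 to 158 in myotubes. LIPG, VEGFA and, in myotubes, CLDN5 were above 10 FPKM in cultures where CDH5, VWF and ESAM were below 1 FPKM. CDH5, VWF and ESAM do not stand for all endothelial markers, as THBD had a mean of 46.3 FPKM over all libraries. In RNA from whole cultures, fewer cells of a type and less RNA per cell cannot be told apart. PECAM1, ERG and EMCN had no entry of that name and were not analysed here.

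Of 21 further endothelial markers with an entry, 18 were tested, of which 5 were called higher, 4 lower and 9 had no call, with a median log2 change of -0.01 against 0.0003 for all tested genes. For this list and those below, the share over all tested genes was 30.0% called higher and 29.1% lower. Some genes of these lists, such as HBAA and PAX3 below, passed the filter only through the myoblasts, so the counts of calls support nothing by themselves. The summed FPKM of the 21 markers ranged from 155 to 169 in myoblasts and from 124 to 135 in myotubes. THBD alone fell by more than this sum did, so the other markers together did not fall. THBD (thrombomodulin, an anticoagulant receptor) went from 78.1 ± 4.98 to 14.5 ± 1.28 FPKM (mean ± SD, n = 3 each), and EDN1 (endothelin) and the arterial ligand EFNB2 fell too, by 1.40 and 1.28 on the log2 scale. ENG, a co-receptor for ligands of the TGF-beta family, rose from 3.93 ± 0.839 to 10.6 ± 1.37 FPKM. Leaving out myoblast replicate 1 or 2 or myotube replicate 2 reduced the 5 higher calls to 3. MMRN1, APLNR and GJA4, named for this reason only, were too low to be tested.

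Among 13 transcription factors of endothelium, 3 were called higher, 6 lower and 4 had no call (median -0.39). SOX18, a driver of lymphatic fate, went from 1.94 ± 0.0582 to 0.326 ± 0.0975 FPKM (mean ± SD, n = 3 each) and the shear-responsive factor KLF2 from 59.3 ± 7.74 to 17.5 ± 3.30. FLI1, an ETS factor of blood and endothelium, rose from 5.95 ± 0.702 to 16.4 ± 1.82 FPKM, and NR2F2, a venous fate factor, rose 1.83-fold. Without myoblast replicate 3, 5 were called higher in place of 3. Of 4 genes in the lymphatic list, 3 were called higher and 1 had no call (median 1.05). The higher ones were LYVE1, the hyaluronan receptor (0.986 ± 0.275 to 6.61 ± 1.28 FPKM), VEGFC and RELN. VEGFC is a secreted ligand rather than a cell marker and is counted again among the ligands below. RELN, named after its values were seen, had means of only 0.128 and 0.401 FPKM. The lymphatic master factor PROX1 was at 1.68 and 1.43 FPKM with no call. So LYVE1 rose in the libraries in which FLT4 fell.

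VEGFA was called lower, while the other VEGF and angiopoietin ligands with an entry (VEGFC, VEGFD, PGF, ANGPT1 and ANGPT4) were called higher. The PDGF ligands were mixed in direction. Of these 8 ligands without VEGFA, all tested, 6 were called higher, 1 lower and 1 had no call (median 0.61). Of all tested genes, 30.0% were called higher. Of the 8, 3 are PDGF ligands, which do not bind VEGF or TIE receptors. The 6 higher calls became 4 without myotube replicate 2 and 3 at an adjusted p under 0.01. ANGPT1, the activating ligand of TEK, was at 1.42, 1.51 and 1.02 FPKM in myoblasts and at 12.1, 10.02 and 11.3 FPKM in myotubes. Every myotube library was far above the myoblast libraries, with a log2 change of 3.15 ± 0.16 (SE, n = 3 each, adjusted p = 3.29e-06, edgeR). ANGPT4, a further TEK ligand, rose from 0.402 ± 0.110 to 2.01 ± 0.149 FPKM (mean ± SD, n = 3 each).

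VEGFD, a ligand of FLT4, was at 0.212, 0.140 and 0.590 FPKM in myoblasts and at 1.44, 1.11 and 1.52 in myotubes, a rise of 2.11 ± 0.46 on the log2 scale, or of 2.98 without myoblast replicate 3. VEGFC, the other FLT4 ligand, rose 1.30-fold, from 8.26 ± 0.855 to 10.3 ± 0.407 FPKM (mean ± SD, n = 3 each), a call lost without myotube replicate 2 (adjusted p = 0.0536, edgeR). PGF, which binds FLT1, was at 66.3, 79.3 and 92.2 FPKM against 107, 112 and 89.4, and the groups overlapped. It was called higher (log2 change 0.43 ± 0.15, adjusted p = 0.0323, edgeR), and the call was lost without myoblast replicate 1 or 2 or myotube replicate 1 or 2 (adjusted p from 0.0783 to 0.110). PDGFB, which recruits mural cells to vessels, fell by 1.65 on the log2 scale, a 3.15-fold fall. PDGFC rose 1.73-fold. PDGFD had no call, or was higher at 0.24 on the log2 scale without myoblast replicate 3. VEGFB and ANGPT2 had no entry of that name and were not analysed here.

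The neuropilins, co-receptors that present VEGF to KDR and FLT4, moved in opposite directions. NRP1 was at 65.0, 55.7 and 43.4 FPKM in myoblasts and at 30.3, 31.5 and 38.1 in myotubes (log2 change -0.66 ± 0.14, SE, n = 3 each, adjusted p = 0.00448, edgeR). NRP2 was at 52.8, 51.5 and 40.1 FPKM against 72.3, 73.9 and 75.6 (0.68 ± 0.10, adjusted p = 0.000595, edgeR). NRP2 stood at 0.812 to 0.924 times the FPKM of NRP1 in myoblasts and at 1.98 to 2.38 times in myotubes. In the list of 13 co-receptors and receptor partners, 4 were called higher, 4 lower and 5 had no call (median 0.06). SEMA3F, a secreted NRP2 ligand, PLCG1, the phospholipase that VEGF receptors activate, and TNS3 rose 4.64-fold, 4.57-fold and 2.20-fold, and the adaptor GRB10 fell by 0.83 on the log2 scale.

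**Figure D5:**
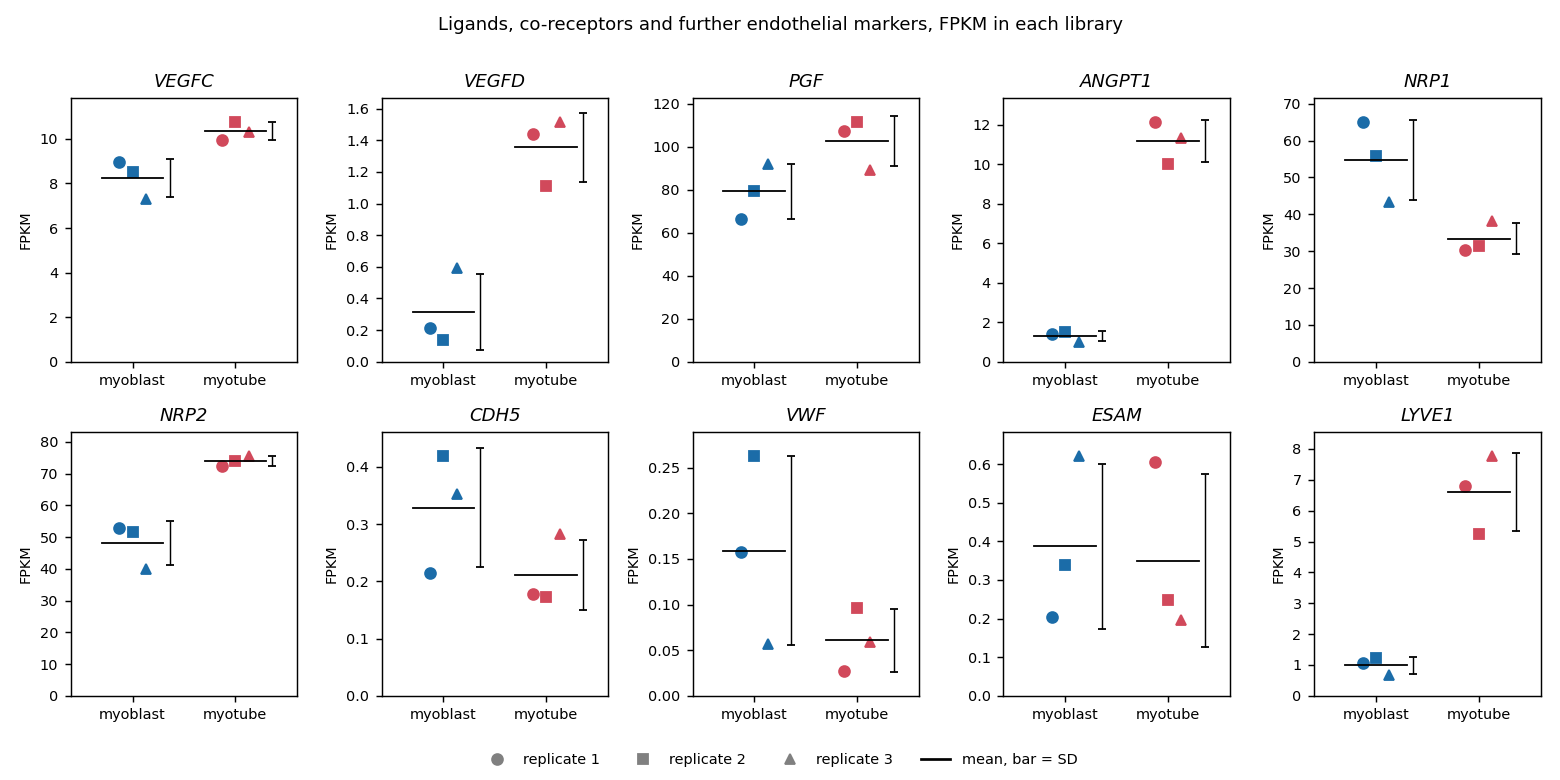
FPKM of VEGF and angiopoietin ligands, neuropilins and further endothelial markers in each of the 6 libraries (vertical axis, linear, from 0), with a line at the mean and a bar for the SD. VEGFD, ANGPT1, NRP2 and LYVE1 are higher in every myotube library, NRP1 is lower in every one, and CDH5, VWF, ESAM and PGF overlap between the groups.

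The partners that bind LMO2 in blood and endothelial cells changed little in most cases. Of 12 genes with an entry, 9 were tested, and 1 was called higher, 2 lower and 6 had no call (median 0.06). LDB2, a LIM-domain binding cofactor, rose from 14.7 ± 3.90 to 56.0 ± 3.21 FPKM (mean ± SD, n = 3 each), while its relative LDB1 was at 30.9 and 31.0 FPKM with no call. RUNX1 and TCF12 fell, by 0.99 and 0.33 on the log2 scale. TAL1, the bHLH partner of LMO2, was at 0.670, 0.829 and 1.84 FPKM in myoblasts and at 1.37, 1.95 and 1.44 in myotubes, with no call. Myoblast replicate 3 lay within the range of the myotube libraries, and without it TAL1 was called higher (log2 change 1.15, adjusted p = 0.00483, edgeR).

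Relatives of CLDN5 and EGFL7 were mostly low. Of 20 genes of the EGFL, claudin and tight junction list with an entry, 10 were tested, 3 were called higher, 3 lower and 4 had no call (median 0.07), and 4 had no count in any library. The claudin CLDN11 was called lower, from 1.02, 0.812 and 0.979 FPKM in myoblasts to 0.267, 0.302 and 0.229 in myotubes. CLDN12 was at 7.03 to 10.6 FPKM in myoblasts and 6.80 to 11.1 in myotubes with no call, and CLDN1 was below 0.6 FPKM throughout with no call. CLDN11 and CLDN12 are named after their values were seen. The secreted EGFL6 rose from 7.53 ± 1.94 to 27.7 ± 4.53 FPKM (mean ± SD, n = 3 each). The claudin-like CLDND1 and the scaffold TJP3 rose, 1.96-fold and 2.17-fold, and the scaffold TJP1 fell by 0.62 on the log2 scale.

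Among lipases, LIPG differed from LPL, its relative that hydrolyses triglycerides in muscle and fat. LPL was at 35.2, 44.7 and 34.3 FPKM in myoblasts and at 28.2, 31.9 and 33.9 in myotubes, with no call (log2 change -0.22 ± 0.11, SE, n = 3 each, adjusted p = 0.109, edgeR; called lower at -0.28 without myoblast replicate 3). LIPG was at 2.99 to 4.42 times the FPKM of LPL in myoblasts and at 0.325 to 0.549 times in myotubes. Of 9 tested genes of the lipase list, 5 were called higher, 0 lower and 4 had no call (median 0.40), and 1 was called lower without myoblast replicate 3 (LPL) or without myotube replicate 1 (LMF1, named after its values were seen). The proprotein convertase PCSK6 rose 10.4-fold, the lipoprotein receptor SCARB1 4.27-fold, SEL1L, which helps lipases fold and leave the cell in mammals, 3.19-fold, and the lipase inhibitor ANGPTL4 2.05-fold.

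VEGFA is a textbook target of the hypoxia-inducible factors, and genes of that pathway moved in both directions. Of 16 genes tested, 9 were called higher, 4 lower and 3 had no call (median 0.33). Of all tested genes, 30.0% were called higher and 29.1% lower. DDIT4, a stress-induced inhibitor of mTOR, went from 174 ± 39.6 to 995 ± 187 FPKM (mean ± SD, n = 3 each), and CA9 and BNIP3 rose 2.25-fold and 2.24-fold. EGLN3, the oxygen-sensing hydroxylase, fell from 20.5 ± 8.31 to 3.36 ± 0.183 FPKM. The vasoactive peptide ADM, named after its values were seen, fell from 167 ± 35.96 to 80.0 ± 3.89. HIF1A had no entry of that name and was not analysed here.

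Markers of other cell types that share these genes were measured in the same libraries. The 9 mural cell genes (pericytes and vascular smooth muscle) summed to 135 to 142 FPKM in myoblasts and 83.7 to 89.6 in myotubes, with 2 called higher and 5 lower. CSPG4 fell from 36.9 ± 3.14 to 8.39 ± 0.566 FPKM (mean ± SD, n = 3 each), MCAM fell from 58.2 ± 5.69 to 25.8 ± 1.23, and TBX18 and MYH11 rose. PDGFRB (means of 26.3 and 23.5 FPKM) and ABCC9 (1.71 and 2.52) had no call. Without myoblast replicate 3, ABCC9 was called higher, at 0.93. RGS5 and KCNJ8 were called lower, from means of only 0.490 and 0.431 FPKM, and each call was lost without some single libraries. Calls of lower mural genes numbered 3 without myoblast replicate 2 or myotube replicate 3. The 11 leukocyte and blood progenitor genes summed to 73.8, 82.1 and 144 FPKM in myoblasts and 117.8 to 123.3 in myotubes, with 2 called higher and 3 lower, or 6 higher without myoblast replicate 3. MYB fell, CD74 rose, and CSF1R was called higher (0.67), a call lost without any one of myoblast replicate 1 or 2 or myotube replicate 1, 2 or 3. Without myoblast replicate 3 CSF1R was at 1.01.

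The 8 erythroid genes summed to 61.9 to 111 FPKM in myoblasts and 25.6 to 27.1 in myotubes, and of 7 tested 5 were called lower and 2 had no call. This count supports nothing by itself, because HBAA, HBAD and SLC4A1 were below the filter's cutoff of 0.428 CPM in every myotube library. They passed it only through the myoblasts. HBAA, HBAD, HBE and GYPC were the ones named by rule, and SLC4A1 is named for this limit only. HBAA went from 227, 131 and 696 counts to 1, 0 and 0. The log2 change of HBAA without myoblast replicate 3 was -8.48 and without myotube replicate 1 it was -11.34, against -9.37 with all libraries; the -11.34 is a fitted value against libraries at 0 and is no bound. Without myoblast replicate 3 HBAD was at -6.56 in place of -7.65, and without myotube replicate 2, with the others at 0, it was fitted at -9.61. Without myoblast replicate 3, 1 gene of the erythroid list (TAL1) and 1 muscle lineage gene (CHRNA1, named after its values were seen) were called higher, in place of 0. HBE was at -2.91, or at -4.05 without myotube replicate 3. Of 13 muscle lineage genes 8 were called lower and 5 had no call, with MYF5, DES, MYF6 and PAX7 at the largest changes among those with a mean of at least 1 FPKM. PAX3, below that level, had 130 and 8 summed counts and a log2 change of -3.78. MYOG was at 287, 287 and 526 FPKM in myoblasts and at 298, 328 and 274 in myotubes, with no call. MYOD1 was called lower (log2 change -0.75), and no gene of the muscle lineage list was called higher with all libraries. DES fell by 2.47 on the log2 scale. MYH15, named after its values were seen, was at -1.31, or at -0.87 without myoblast replicate 3. The groups are named by their labels, and how far the myotube cultures had differentiated was not tested. Of 11 fibroblast genes tested 8 were called higher and 1 lower, with DPT, LUM, FBLN1 and COL1A2 at the largest changes, and their summed FPKM was 1260 to 2088 in myoblasts and 4493 to 5159 in myotubes. The part of these cell types in the levels of the 10 genes was not tested.

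By position, KDR lies on chromosome 4 (65598124 to 65625791), FLT1 on chromosome 1 (175837246 to 175938674), FLT4 on chromosome 13 (13348919 to 13395196) and TIE1 on chromosome 8 (19730043 to 19741073), all on the plus strand. TEK (68562096 to 68597536) and LIPG (1062374 to 1068322) lie on chromosome Z, whose 677 tested genes had a median log2 change of 0.02. The other genes are on the minus strand: EGFL7 on chromosome 17 (8230689 to 8245326), CLDN5 on chromosome 15 (701150 to 702907), LMO2 on chromosome 5 (18401703 to 18408406) and VEGFA on chromosome 3 (30739147 to 30759022). These are the coordinates of the deposited tables, for which no genome build is stated.

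Neighbouring entries moved in their own ways. KIT, the stem cell factor receptor that lies 56666 bases beyond KDR, had 46 counts in myoblasts and 2 in myotubes and was called lower. KIT was below the filter's cutoff of 0.428 CPM in every myotube library, so it passed only through the myoblasts. SRD5A3 on the other side of KDR rose (log2 change 1.47 ± 0.12). RNF130, 2275 bases beyond FLT4, fell by 0.64 on the log2 scale.

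An unnamed entry 567 bases past the 3′ end of CLDN5 on the same strand rose with it (log2 change 2.01 ± 0.15), from 389 to 1373 summed counts. AGPAT2, 1619 bases past the 3′ end of EGFL7 on the opposite strand, rose by 0.84 ± 0.14 on the log2 scale. ACAA2, the nearest entry past the 3′ end of LIPG, was at 0.12 ± 0.08 with no call. Of the 10 genes, FLT1 and EGFL7 overlapped a further entry, which had 0 counts in the case of FLT1 and 4 and 3 summed counts in myoblasts and myotubes in the case of EGFL7. Whether counting used strand is not stated.

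Outside the set, HADHB, POLR1D and UBE2V2 had the pattern most like that of KDR over the 6 libraries, with Pearson r of 0.998, 0.996 and 0.995 on log2(FPKM + 1). They are the highest of 8781 named genes with a mean of at least 1 FPKM, of which 646 had an r above 0.95, so the ranking separates them little.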

How the data were processed

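RNA was sequenced in 3 myoblast and 3 myotube libraries, grouped by the developmental stage label. The authors used HISAT and HTSeq, per the submitters' processing notes; no version, genome build, annotation, strand setting or filter is stated. Each deposited table gives, per the file headers, whole-number read counts per gene and the authors' FPKM. A pair of lines naming no gene was left out of each. Counts were tested as deposited with edgeR 4.0.16 in R 4.3.3: filterByExpr (minimum count 10, total 15), TMM, glmQLFit and glmQLFTest on group alone, two-sided, Benjamini-Hochberg over 15959 genes, called at adjusted p under 0.05. The SE is the size of the log2 change over the root of its F statistic. The code was also run on simulated counts with few changed genes, a fixed dispersion and no outlying library. That setting is simpler than these data, so the run does not show how the test performs here. Intervals of count ratios are exact binomial at 95%, and the limit for a count of 0 is 3 counts; both cover counting error only. Alternatives used DESeq2 1.42.0 and limma 3.58.1.

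The 10 genes and the 14 further lists (symbols matched by name, or by a RefSeq synonym) were chosen with earlier results of these data known. In each list up to 4 called genes with the largest change and a mean of at least 1 FPKM were named, with the 10 genes and a fixed set of ligands, co-receptors and defining markers whatever their result. Counts of no pair of libraries within a group agreed within sampling noise, so none was treated as a repeat deposit; this does not show that they are biological replicates.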

Additional observations from a re-analysis of the deposited data

How the results depend on the processing

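KDR, FLT1, FLT4, TIE1, LIPG, CLDN5 and EGFL7 kept their direction and call under DESeq2, DESeq2 size factors, no filter, limma on FPKM, an adjusted p under 0.01, the replicate block and without each library. The adjusted p over these alternatives ran up to 0.0199, for TIE1. With limma on log2(FPKM + 1), which compresses low genes, KDR was at -0.30, TIE1 at -0.30 and FLT4 at -1.55. LMO2 (0.45) and VEGFA (-0.26) missed an adjusted p of 0.01. Without 1 library each, LMO2 ranged from 0.39 to 0.52 and VEGFA from -0.32 to -0.19. No pairing of the libraries by replicate number was seen: deviations of same-numbered libraries correlated at 0.04, 0.03 and -0.05, and not every library correlated best with its own number. With 3 libraries per group this check is weak, and it cannot decide whether same-numbered libraries share a culture or embryo. With the replicate block LMO2 was at 0.45 and lost its call (edgeR adjusted p = 0.0503), and 4579 genes were called higher and 4381 lower, against 4785 and 4651. Of 364 counts of calls in the other lists under alternatives, 342 were within 1.5 times the value reported, 15 were fewer and 7 more. The counts limit KDR, TIE1 and TEK most.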
